A study of Mus musculus with 12 samples.

Results

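Loss of both Ets1 and Ets2 was set against wild type in cultured mouse aortic endothelial cells. The comparison used 5 of the 12 columns of array values: 2 of the 3 labelled null for both genes (here called DKO, as labelled) and the 3 labelled wild type (WT). The cells labelled DKO carried the genotype Ets1-/-; Ets2fl/fl and had been infected with a lentivirus encoding eGFP and Cre. WT cells were Ets1+/+; Ets2+/+ and had been infected with a lentivirus encoding eGFP alone. All cells came from the aorta of mice aged 4 weeks and were grown with 20% serum, heparin and endothelial growth supplement. Cre, floxed Ets2 alleles and absence of Ets1 were therefore present together in DKO and absent together in WT, and their parts cannot be told apart here. Cre was delivered to whole cultures, and the labels do not state the share of cells in which Ets2 recombined. The word biological in the titles is the only sign that replicates came from separate animals, and p-values may therefore measure technical spread alone.

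Ets1 and Ets2 belong to the ETS family of transcription factors, which share a DNA-binding domain that recognises a GGAA core. ETS sites lie in the promoters and enhancers of many endothelial genes, and Ets1 and Ets2 are activated when ERK phosphorylates them downstream of RAS. In endothelium they are known for roles in survival, angiogenesis and matrix remodelling.

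Levels are log2 intensities minus the median of the array, so that 0 is the middle of an array and 1 unit is a 2-fold difference. A probe set is a group of short probes that reads 1 stretch of a transcript, and many genes have several. A difference is DKO minus WT and was called at a limma adjusted p below 0.05 over all 20523 probe sets. Weight was given to genes whose probe sets agree. Genes discussed below were picked by a size rule or as members of lists, with earlier results of these data known.

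Facts about the arrays bear on every value. Before the medians were subtracted, the arrays labelled DKO had medians of 8.30 and 8.29, against 9.05 to 9.12 in WT. Whether they were normalized together with the other columns is not known, and if they were not, every DKO minus WT value holds that step too. The other column labelled DKO holds the average of the 2 used here, except at Birc3 and Sphk1, and was not used. After subtraction the median probe set was still 0.16 higher in DKO, and as deposited it was 0.63 lower (log2 -0.63). Xist, which is transcribed from the inactive X chromosome of female cells, had levels of 4.68 and 4.90 in DKO, against -1.79, 4.07 and 2.33 in WT (1436936_s_at). The Y-linked gene Eif2s3y had -4.64 and -4.66 in DKO, against 0.32, -5.81 and -5.88 in WT. Kdm5d, also Y-linked, had -4.80 and -4.59 in DKO, against -1.11, -5.98 and -5.69 in WT. WT replicate 1 thus had the levels of male cells, and the other WT arrays and both DKO arrays those of female cells. The part of sex in the results was not tested. Of 12 endothelial markers 3 were measured here (Kdr, Egfl7 and Cd34), with a mean level of -0.87 and -2.04 in DKO and 0.36, -0.51 and -0.78 in WT, and the defining markers were thus checked on few genes. A wider list of endothelial genes, 12 of 37 measured, had a mean level of -1.02 and -0.95 in DKO and -0.42, -1.11 and -0.83 in WT, with 1 member called higher (Aplnr, an apelin receptor) and 0 lower. The adipocyte markers (5 of 8 measured) had 0.11 and -2.24 in DKO and -1.27, -1.95 and 1.98 in WT, so WT replicate 3 stood apart in them, and their part in the results was not tested.

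The targeted genes were read first. Ets1 did not show the loss that its label states. At its brightest probe set, 1452163_at, Ets1 had levels of 1.72 and 1.99 in DKO, against 1.21, 0.72 and 0.95 in WT. Both DKO arrays lay above all WT arrays, by 0.90 on average (SE 0.256, adjusted p = 0.0235). Its probe set 1426725_s_at gave 0.78 (adjusted p = 0.0394), and 1422028_a_at gave 0.18 (adjusted p = 0.668). The fourth, 1422027_a_at, had -1.81 and -1.24 in DKO, against -0.35, -0.34 and -0.29 in WT, a fall of 1.20 (log2 -1.20, adjusted p = 0.00750). Probe sets of the same gene were thus called in opposite directions. Against the arrays titled Ets1 null, whose genotype is given as Ets1-/- but whose description calls Ets1 wild type, the brightest Ets1 probe set was 2.26 higher in DKO (adjusted p = 3.44e-04). Ets2 at 1416268_at had levels of 2.72 and 1.34 in DKO, against 0.68, 0.89 and 1.59 in WT, and the groups overlapped (difference 0.98, SE 0.411, adjusted p = 0.0935). That difference was 0.29 without DKO replicate 1 and 1.66 without DKO replicate 2, and it was called without DKO replicate 2 or WT replicate 3 (adjusted p = 0.0187 and 0.0474). Its other probe set, 1447685_x_at, gave 0.59 (adjusted p = 0.182). In an exact permutation test over the 5 arrays (two-sided), the p of the 4 Ets1 probe sets was 0.1, 0.1, 0.7 and 0.1 in the order given, and that of Ets2 was 0.3 and 0.5, where 0.1 is the smallest p that 10 splits allow. As deposited, 1426725_s_at and 1422028_a_at of Ets1 turned negative (-0.02 and -0.61), and so did 1447685_x_at of Ets2 (-0.20). Without DKO replicate 1 the call of 1422027_a_at ended, and the call of 1452163_at ended without WT replicate 2 or DKO replicate 2 (adjusted p up to 0.0572 and 0.130). The call of 1426725_s_at held in 4 of 11 fits that left out 1 array. Which exons these probe sets read was not examined here. The 2 columns are therefore called the arrays labelled DKO.

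Over all probe sets, 4432 were called higher in DKO (21.6%) and 2957 lower (14.4%), and 11583 (56.4%) had levels that did not overlap between the groups. As deposited, without subtraction of the medians, the split was 590 higher and 9431 lower. Their share varied with intensity. With probe sets put in 10 equal bins by their WT level, 40.1% of the dimmest bin were called higher and 0.731% lower, while in bin 5 18.5% were higher and 19.3% lower. Agreement within genes was rarer, and it asks for every probe set of a gene to be called, a stricter rule than the call of a single probe set. Of 4785 genes with 2 or more probe sets, 277 had every probe set called higher (5.79%), 146 had every one called lower (3.05%), and 454 had probe sets called both ways (9.49%). All probe sets had the same sign in 50.1% of these genes. The same share was 70.8% for Ets1 null against WT and 70.1% for Ets2 null against WT, comparisons that use the same WT arrays. Those comparisons had 0 genes called both ways, with 0 probe sets called higher and 1 lower, and with 69 higher and 61 lower. The more probe sets a gene had, the more often they were called both ways, as the plot of calls by number of probe sets shows. More probe sets give more chances of a call each way and fewer of full agreement, so such a trend arises from counting alone.

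**Figure D1:**
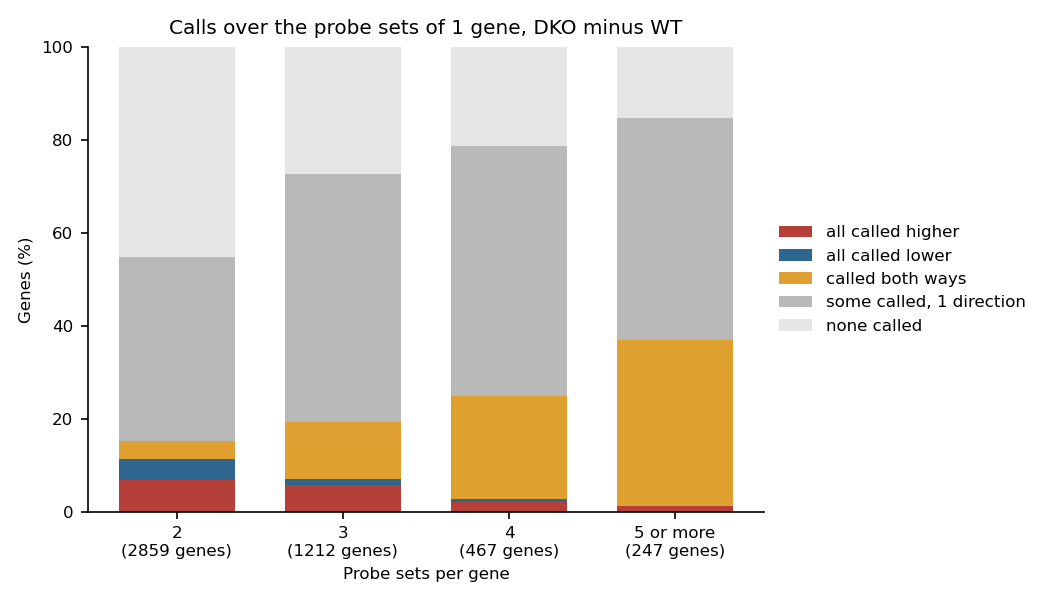
Share of genes (%) by number of probe sets per gene, divided by what the probe sets did in the arrays labelled DKO against WT. Of genes with 2 probe sets 115 were called both ways, 194 agreed upward and 128 downward, and of genes with 5 or more 88 were called both ways and 3 agreed. More probe sets give more chances of calls both ways and fewer of agreement.

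Among the 277 genes called higher at every probe set, 155 also had only positive differences as deposited, and all 146 genes called lower had only negative ones. For the falls this was fixed in advance, because subtraction of the medians raised every difference by the same amount. The rises are therefore stated relative to the array medians. The genes described first kept their sign on both scales, which restricts the rises alone. The median difference was 1.06 over the genes that agreed upward and -1.29 over those that agreed downward. Within a gene the probe sets spanned a median of 0.40 and 0.59, against 2.30 in genes called both ways. Genes called both ways must have probe sets on both sides of 0, so a wider span there follows from how the genes were sorted.

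The 12 largest agreeing rises, ranked by the smallest difference of any of their probe sets, included genes of oxygen sensing, mitochondria, the secretory pathway, matrix, adhesion and coagulation. Egln3, a prolyl hydroxylase that marks hypoxia-inducible factor (HIF) for destruction and is itself induced by HIF, had levels of 3.89 and 3.72 in DKO, against -0.02, 0.81 and 0.72 in WT (1418649_at). Its other probe set had 3.70 and 3.71 in DKO, against -0.13, 0.48 and 0.54 in WT. The groups lay far apart at both, and the differences were 3.30 (SE 0.446, adjusted p = 8.71e-04) and 3.41 (SE 0.412, adjusted p = 5.16e-04). Egln1, the main prolyl hydroxylase of this family, had 3.76 and 4.29 in DKO, against 1.28, 1.54 and 0.73 in WT (1423785_at). It rose by 2.84 there and by 2.10 at its other probe set. Higd1a, a hypoxia-induced protein of the inner mitochondrial membrane, had 3.50 and 3.12 in DKO, against -1.14, -1.12 and -0.04 in WT (1416481_s_at), and rose by 4.08, 3.83 and 2.05 at its 3 probe sets. Ero1a, the oxidase that drives disulfide bonding in the endoplasmic reticulum, had 4.65 and 5.58 in DKO, against 2.69, 2.66 and 2.23 in WT (1449324_at). All 3 of its probe sets rose, by 2.28 to 2.66.

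**Figure D2:**
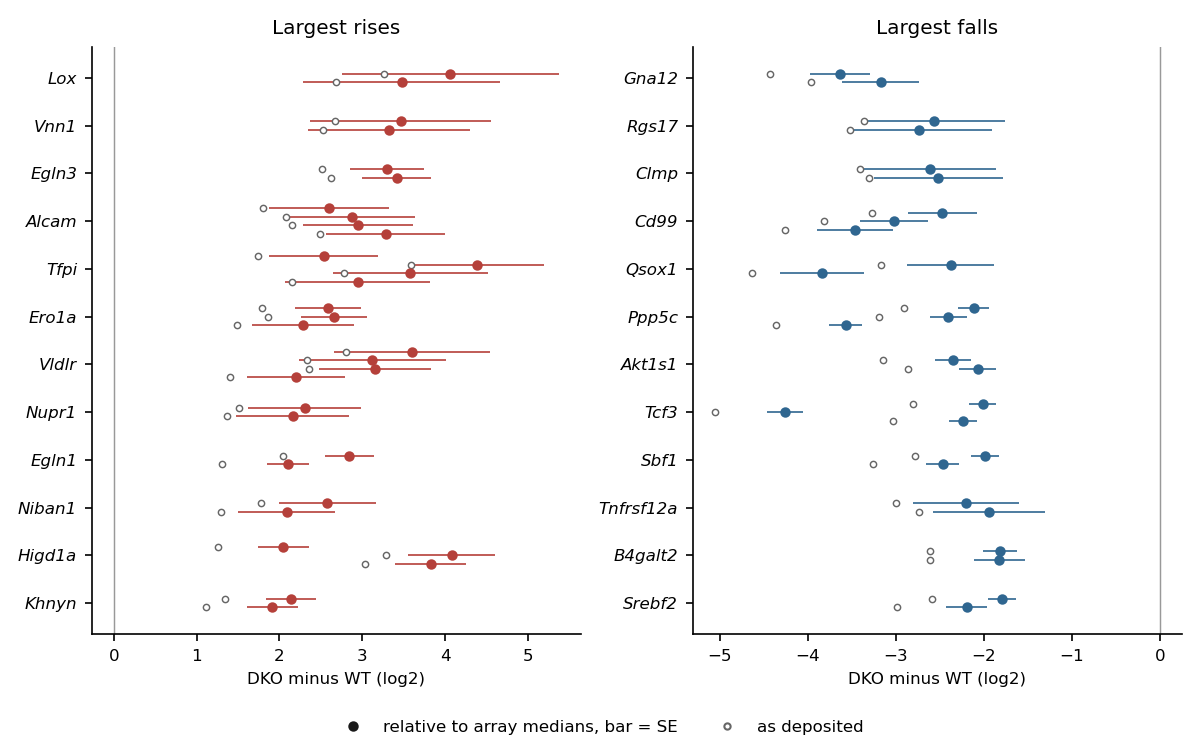
Difference DKO minus WT (log2, x axis) at every probe set of the 12 genes with the largest agreeing rises and the 12 with the largest agreeing falls. Filled points are relative to array medians with bars of 1 SE, and open points are as deposited. The rises were picked to keep the same sign on both scales, and a fall can only be larger as deposited, so no probe set crosses 0.

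Other large rises came with wide spread among the WT arrays. Lox, the enzyme that cross-links collagen and elastin, had 5.86 and 5.08 in DKO, against -1.11, 3.03 and 2.29 in WT (1416121_at). The difference was 4.06 (SE 1.31, adjusted p = 0.0379), and 1 WT array lay far below the others. Tfpi, the inhibitor of the tissue factor pathway of coagulation, had 3.04 and 2.66 in DKO, against -2.82, 0.54 and -2.33 in WT (1451791_at), and rose by 2.54 to 4.39 at 4 probe sets. Vldlr, a lipoprotein receptor, had 1.70 and 2.14 in DKO, against 0.21, -3.75 and -1.50 in WT (1434465_x_at), and rose by 2.20 to 3.60 at 4 probe sets. Alcam, a cell adhesion molecule of leukocytes and endothelium, rose by 2.60 to 3.28 at 4 probe sets, and its WT levels ranged from -0.90 to 1.22 (1426300_at). Vnn1, a pantetheinase, rose by 3.46 and 3.32. The stress-induced chromatin protein Nupr1 rose by 2.31 and 2.16, and Niban1, a stress-responsive regulator of translation, by 2.58 and 2.09. Khnyn, a cofactor of the antiviral protein ZAP, had tight WT levels of -1.05, -1.02 and -1.36, against 0.45 and 1.54 in DKO, and rose by 2.14 and 1.91. Egln3, Egln1, Higd1a and Khnyn kept every call in all 11 fits that left out 1 array. Lox kept it in 2, those without WT replicate 2 or Ets2KO replicate 3 (adjusted p otherwise up to 0.208). Alcam, Tfpi, Nupr1, Vnn1, Vldlr, Niban1 and Ero1a lost theirs without DKO replicate 2, and all of these but Ero1a also without DKO replicate 1, Alcam and Niban1 without WT replicate 2, and Alcam, Tfpi, Nupr1 and Vnn1 without WT replicate 1 (adjusted p up to 0.166). Tfpi, Nupr1 and Vnn1 lost theirs without WT replicate 3 too.

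Hypoxia-induced and glycolytic genes were among the lists called higher most often, with ribosomal proteins close behind (12 of 30). The order of these lists turned with the intensity trend (14 against 15) and with the filter on the median (12 against 13). Of 30 measured, 13 had every probe set called higher and 0 every probe set called lower, where 13.2% of all 11015 genes were called higher at every probe set and 7.95% lower. Probe sets were called both ways in 4 of the 15 members with 2 or more, Pfkp, P4ha1, Hif1a and Hk1, where 9.49% of all such genes were. The median difference at the brightest probe set was 1.47, against 0.18 over all genes. The mean level of the list was 3.10 and 3.08 in DKO, against 1.29, 1.53 and 1.65 in WT, and the groups did not overlap. Among transporters and enzymes, Slc2a1, the glucose transporter GLUT1, had 4.10 and 4.20 in DKO, against 2.20, 1.99 and 2.88 in WT (1434773_a_at), and rose by 1.80, 2.02 and 1.15 at its 3 probe sets. Hk2, which phosphorylates glucose in the first step of glycolysis, had 3.05 and 3.57 in DKO, against -0.29, 0.55 and 0.71 in WT, a rise of 2.99 (SE 0.464) at its only probe set. The aldolase Aldoc rose by 3.88 at its only probe set, and the muscle-type aldolase Aldoa by 0.63 to 1.41 at 5. Tpi1, which interconverts the triose phosphates, rose by 0.87 to 0.95 at 3, and the phosphoglycerate kinase Pgk1 by 0.78 to 1.50 at 3. As deposited, 1 or more probe sets of Aldoa and Pgk1 were below 0.

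Other members of the list act outside glycolysis. P4ha2, which hydroxylates proline in collagen, had 4.26 and 4.62 in DKO, against 0.77, 1.24 and 1.08 in WT. The groups were more than 3 units apart, and the rise was 3.41 (SE 0.249, adjusted p = 4.95e-05). Bnip3, a mitochondrial protein of mitophagy, had 5.49 and 5.46 in DKO, against 2.69, 2.96 and 3.71 in WT, a rise of 2.36 (SE 0.564). Ankrd37, a HIF-induced ankyrin repeat protein, rose by 3.88 (SE 0.662). The count of 13 was 8 higher and 1 lower as deposited, and it lay between 9 and 14 in the fits that left out 1 array, 9 without DKO replicate 2. Slc2a1 lost its call without WT replicate 1, WT replicate 2 or DKO replicate 2 (adjusted p up to 0.248). Bnip3, Aldoa and Tpi1 lost theirs without DKO replicate 2 (adjusted p up to 0.0913).

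**Figure D3:**
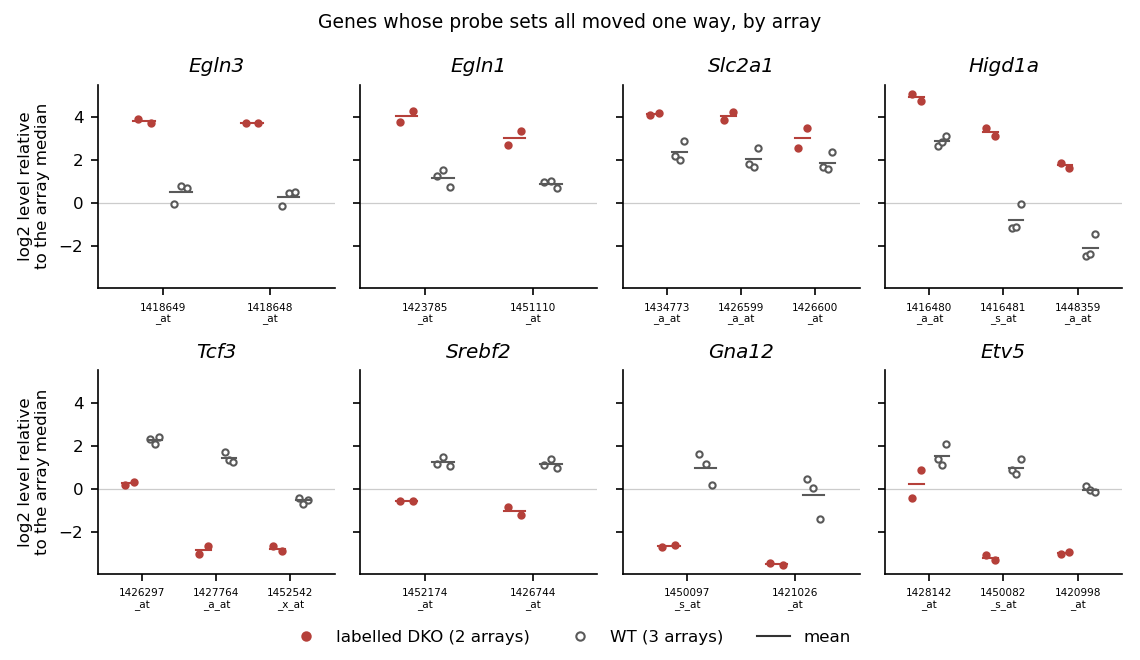
Log2 level relative to the array median (y axis) at each probe set of 8 genes whose probe sets all moved one way, with the arrays labelled DKO left of WT and a line at each mean. Egln3, Egln1, Slc2a1 and Higd1a lie higher in DKO, and Tcf3, Srebf2, Gna12 and Etv5 lie lower, with no overlap at any probe set.

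HIF binds DNA at a short core, and the promoters of Egln3, Egln1 and Slc2a1 from this list and of Ero1a, which is not on it, are printed because they hold the letters ACGTG, searched on both strands. The sequences are the 250 bases before the RefSeq transcription start on the strand of the gene, from GRCm38.p6, with the match in capitals (CACGT where it lies on the other strand). Egln3 is at chr12:54203875-54204124 on the reverse strand, with the match 229 bases before the start. Egln1 is at chr8:124949255-124949504 on the reverse strand, with the match 68 bases before it. Ero1a is at chr14:45318573-45318822 on the reverse strand, with the match 63 bases before it. Slc2a1 is at chr4:119108495-119108744 on the forward strand, with the match 36 bases before it.
Egln3: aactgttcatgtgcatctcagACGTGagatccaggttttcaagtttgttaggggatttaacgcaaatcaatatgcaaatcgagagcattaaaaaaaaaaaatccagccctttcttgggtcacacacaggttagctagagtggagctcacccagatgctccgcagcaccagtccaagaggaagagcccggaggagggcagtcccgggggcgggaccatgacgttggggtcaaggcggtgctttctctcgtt
Egln1: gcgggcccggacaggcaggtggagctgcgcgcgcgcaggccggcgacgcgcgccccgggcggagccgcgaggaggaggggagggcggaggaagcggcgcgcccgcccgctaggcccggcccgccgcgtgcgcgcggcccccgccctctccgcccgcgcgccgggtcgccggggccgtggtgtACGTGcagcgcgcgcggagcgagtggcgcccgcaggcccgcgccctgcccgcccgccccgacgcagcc
Ero1a: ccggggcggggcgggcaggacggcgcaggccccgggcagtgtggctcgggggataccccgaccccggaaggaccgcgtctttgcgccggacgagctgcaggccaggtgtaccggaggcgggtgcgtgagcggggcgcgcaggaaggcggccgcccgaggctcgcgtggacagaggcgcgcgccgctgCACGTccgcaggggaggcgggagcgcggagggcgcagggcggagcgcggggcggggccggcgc
Slc2a1: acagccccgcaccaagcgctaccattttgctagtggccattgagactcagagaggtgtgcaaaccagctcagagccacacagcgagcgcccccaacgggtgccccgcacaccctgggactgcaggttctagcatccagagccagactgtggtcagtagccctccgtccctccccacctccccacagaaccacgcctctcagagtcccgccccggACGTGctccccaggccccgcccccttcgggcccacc
Within 300 bases (250 before and 50 after the start), 11 of the 13 genes called higher on this list held these letters, and 20 of all 30 measured members did, 27 of which had a promoter in the table. Of all genes with 2 or more probe sets and a promoter, 31.2% held them, and 19.6% of all promoters in the table did. The list was assembled from genes known as HIF targets, so the share describes the list and not the DKO arrays. For the 277 genes called higher at every probe set, a promoter was found for 78.0%, which is below 80%, so the motif check is void for that group.

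Glycogen metabolism followed glycolysis on this scale. Of 16 measured genes, 4 had every probe set called higher (25%, against 13.2% of all genes) and 0 lower. The list mean was 1.33 and 1.41 in DKO, against 0.03, 0.15 and 0.80 in WT. The branching enzyme Gbe1 had 1.52 and 2.97 in DKO, against -0.66, -1.26 and -0.23 in WT, a rise of 2.96 (SE 0.414). Pgm1, a phosphoglucomutase, rose by 1.61 and 1.89, and Ugp2, which makes UDP-glucose, rose by 0.78 to 1.78 at all 5 probe sets. As deposited the list had 1 gene called higher and 5 lower, so its direction rests on the scale. Without DKO replicate 1, DKO replicate 2 or WT replicate 2 its count was 2.

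Collagens and the enzymes that modify them were called at a share near that of all genes. Of 31 measured genes, 5 had every probe set called higher (Lox, P4ha2, Prelp, Plod2 and Fn1), which is 16.1% against 13.2% of all genes, and 1 lower, with a median of 0.81. Prelp, a matrix proteoglycan that anchors basement membranes, had 2.55 and 1.42 in DKO, against -1.49, -2.12 and -1.61 in WT (1416321_s_at), and rose by 3.73 and 1.65. Plod2, a lysyl hydroxylase of collagen, rose by 1.73 and 2.31. Fibronectin, Fn1, had 6.21 and 6.15 in DKO, against 5.13, 5.50 and 5.46 in WT (1426642_at), and rose by 0.81 there and by 2.75 at its other probe set. Col1a1, Col3a1 and Col5a2, which encode fibrillar collagens, had no probe set called, with mean differences of 1.68, 1.12 and 1.83. Col1a2, another fibrillar collagen, was called higher at 1 of 3 probe sets (mean 2.19), and its brightest gave 1.74 (limma adjusted p = 0.0505). Of 11 fibroblast markers 9 were measured and 0 had every probe set called. Their mean level was 2.16 and 1.57 in DKO and 1.63, 1.79 and 1.39 in WT, and the pericyte markers (6 of 8 measured) had 0.20 and -0.54 in DKO and -1.32, -0.20 and -1.25 in WT. The part of such cells in the matrix rises was not tested, and in bulk samples more cells of a type and more RNA per cell cannot be told apart. As deposited the counts were 1 higher and 2 lower, and with the 5 arrays alone 3 and 0. Plod2 and Fn1 lost their calls without DKO replicate 2 (adjusted p up to 0.145).

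Genes of the response to unfolded protein were called at shares near those of all genes. Of 28 measured genes, 5 had every probe set called higher and 2 lower, with a median of 0.46. These are 17.9% and 7.14%, against 13.2% and 7.95% of all genes. Ddit3, the stress-induced transcription factor CHOP, had 2.09 and 1.83 in DKO, against -0.36, -0.38 and 0.21 in WT (1417516_at), and rose by 2.13 and 1.47. Trib3, a pseudokinase induced by CHOP, rose by 1.44 and 1.32, and the co-chaperone Dnajb9 by 1.40. The chaperone partner Sdf2l1 fell to -0.91 and -1.09 in DKO, against 0.57, 0.64 and 0.46 in WT (log2 -1.56, SE 0.182). Ddit3 and Sdf2l1 kept their calls in all 11 fits that left out 1 array. Trib3 lost its call without WT replicate 1, WT replicate 2 or DKO replicate 1 (adjusted p up to 0.132). As deposited the list had 1 gene called higher and 9 lower, and with the 5 arrays alone 2 and 1. Its count lower was 1 without WT replicate 1 or 2, any Ets1KO array or Ets2KO replicate 1.

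The 12 largest agreeing falls included regulators of signalling, a transcription factor of the basic helix-loop-helix class and surface or secreted proteins. Tcf3, which encodes the E proteins E12 and E47, had levels of -3.02 and -2.63 in DKO, against 1.69, 1.36 and 1.26 in WT (1427764_a_at). It fell at all 3 probe sets, by log2 values of -4.26 (SE 0.204, adjusted p = 1.03e-05), -2.24 and -2.01. Gna12, an alpha subunit of heterotrimeric G proteins, had -2.72 and -2.59 in DKO, against 1.61, 1.15 and 0.17 in WT (1450097_s_at). Its differences were -3.63 (SE 0.341, adjusted p = 1.49e-04) and -3.17. Ppp5c, a serine and threonine phosphatase, had -2.60 and -2.63 in DKO, against 1.16, 1.08 and 0.62 in WT (1424115_at), with differences of -3.57, -2.40 and -2.12. Qsox1, a secreted sulfhydryl oxidase that acts on matrix proteins, had -2.06 and -1.25 in DKO, against 2.26, 2.68 and 1.62 in WT (1420831_at), with differences of -3.84 and -2.38. Both DKO arrays lay below every WT array in all of these, which the rule that picked them required.

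The remaining falls were of the same order. Cd99, an adhesion molecule of leukocyte passage through endothelium, had -1.90 and -1.96 in DKO, against 1.80, 2.32 and 0.50 in WT (1430514_a_at), and differed by -3.47, -3.02 and -2.47. Akt1s1, the PRAS40 inhibitor of the mTOR complex, differed by -2.35 and -2.07, and Sbf1, a pseudophosphatase of the myotubularin family, by -2.47 and -1.99. The galactosyltransferase B4galt2 differed by -1.82 at each of 2 probe sets. Tnfrsf12a, the receptor for the cytokine TWEAK, had 1.50 and 1.57 in DKO, against 3.66, 3.80 and 3.76 in WT (1418571_at), a fall of 2.20 (log2 -2.20) with tight arrays in both groups. Rgs17, a brake on G protein signalling, differed by -2.57 and -2.73, and the junctional adhesion protein Clmp by -2.61 and -2.52, both with WT levels that spanned more than 2 units. Tcf3, Gna12, Ppp5c, Qsox1, Cd99, Akt1s1, Sbf1 and B4galt2 kept their calls in all 11 fits that left out 1 array. Tnfrsf12a kept its call in 3, those without Ets2KO replicates 1, 2 or 3 (adjusted p otherwise up to 0.134). Rgs17 and Clmp lost theirs without WT replicate 1, WT replicate 3 or DKO replicate 2, and Rgs17 also without DKO replicate 1 (adjusted p up to 0.167).

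ETS factors bind best where GGAA stands within CCGGAAGT, and Akt1s1 and Tcf3 are shown because their promoters hold these letters, in capitals (ACTTCCGG on the other strand). The same window of 250 bases before the RefSeq start was read from GRCm38.p6. Akt1s1 is at chr7:44850122-44850371 on the forward strand with the match 49 bases before the start, and Tcf3 at chr10:80433636-80433885 on the reverse strand with the match 248 bases before it.
Akt1s1: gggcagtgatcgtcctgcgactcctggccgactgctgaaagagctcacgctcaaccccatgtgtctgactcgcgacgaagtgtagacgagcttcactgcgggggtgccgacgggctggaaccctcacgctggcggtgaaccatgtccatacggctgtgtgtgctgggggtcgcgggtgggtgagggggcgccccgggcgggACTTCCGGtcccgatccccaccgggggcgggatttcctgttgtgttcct
Tcf3: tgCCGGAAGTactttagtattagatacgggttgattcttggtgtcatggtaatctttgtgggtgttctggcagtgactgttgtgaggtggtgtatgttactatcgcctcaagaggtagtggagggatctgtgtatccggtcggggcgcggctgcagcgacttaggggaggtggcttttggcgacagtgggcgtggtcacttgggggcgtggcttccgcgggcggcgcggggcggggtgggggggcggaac
Of the 146 genes called lower at every probe set, 121 had a promoter in the table and 17 of those held the letters within 300 bases (14.0%). The share was 9.89% (385 of 3893) among all genes with 2 or more probe sets, and 3.89% of all promoters held it. In the genes called higher it was 12.5%, in the group where the motif check is void. A gene counted if any of its promoters held the letters. The genes called lower had a mean of 1.45 promoters each, against 1.31 in all with 2 or more probe sets. The difference in share was not tested. The median GC content was 63.8% in the genes called lower and 62.0% in all with 2 or more probe sets. The letters ACGTG stood in 24.0% of the genes called lower, Etv5, Psma7 and Ndufv1 among them. Of the 12 genes with the largest falls, Akt1s1 and Tcf3 held CCGGAAGT, and Cd99 and Clmp had no promoter in the table. Other genes described here held CCGGAAGT too, among them Cox8a, which fell, and Ddit3, Insig2 and Rps6, which rose.

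Cholesterol synthesis and sterol sensing genes were called lower more often than genes at large. Of 23 measured, 7 had every probe set called lower (30.4%, against 7.95% of all genes) and 1 higher, with a median of -0.84. Srebf2, the transcription factor that drives this pathway, had -0.56 and -0.57 in DKO, against 1.14, 1.49 and 1.06 in WT (1452174_at). It fell at both probe sets (log2 -1.80, SE 0.159, adjusted p = 1.18e-04, and -2.20). Scap, which escorts that factor to the Golgi, had 0.39 and 0.36 in DKO, against 2.49, 2.05 and 1.63 in WT (log2 -1.68). Insig1, which holds the factor back when sterol is plentiful, differed by -1.82, whereas its relative Insig2 rose at all 3 probe sets by 1.06 to 1.83. Among the enzymes, the farnesyl diphosphate synthase Fdps had 0.46 and -1.43 in DKO, against 1.88, 2.72 and 1.92 in WT (log2 -2.66), and the mevalonate kinase Mvk differed by -0.93 and -1.23. As deposited, where 9431 of all 20523 probe sets were called lower and 590 higher, 13 members were called lower. Without DKO replicate 2 or WT replicate 2 there were 4, and Srebf2, Scap and Fdps kept their calls in all 11 such fits. Mvk kept its call in 3, Insig1 in 7 and Insig2 in 8 (adjusted p up to 0.293). Mvk kept it without WT replicate 3, Ets2KO replicate 3 or DKO replicate 1. Insig1 lost it without WT replicate 2 or 3 or DKO replicate 1 or 2, and Insig2 without WT replicate 1 or 3 or DKO replicate 2.

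Among relatives of the targeted genes, 14 of 24 ETS family members were measured. Of these, 4 had every probe set called lower (28.6%, against 7.95% of all genes) and 0 higher. Etv5, an ETS factor induced by ERK signalling, had -3.07 and -3.31 in DKO, against 0.86, 0.71 and 1.40 in WT (1450082_s_at). Its 3 probe sets differed by -4.18 (SE 0.244, adjusted p = 1.79e-05), -2.94 and -1.28, all without overlap. Etv4, of the same subfamily, had -0.92 and -0.51 in DKO, against 1.07, 0.91 and 0.89 in WT (log2 -1.67). The ETS repressor Erf had -1.37 and -1.59 in DKO, against 0.37, 0.32 and 0.19 in WT (log2 -1.77), and Elk1, a partner of serum response factor, differed by -0.64. These last 3 rest on 1 probe set each. Erf and Elk1 kept their calls in all 11 fits that left out 1 array. Etv5 lost a call without WT replicate 1, WT replicate 3 or DKO replicate 1, and Etv4 lost its call when any 1 of the 3 WT or 2 DKO arrays was left out (adjusted p up to 0.222 and 0.131).

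Genes of the RAS pathway were called at shares near those of all genes. Of 26 feedback genes, 3 had every probe set called lower and 2 higher (11.5% and 7.69%, against 7.95% and 13.2% of all genes). Of 18 kinases, exchange factors and G proteins of the pathway, 3 were called higher (16.7%) and 0 lower. Dusp7, a phosphatase that switches off ERK, had -2.40 and -2.31 in DKO, against 0.37, -0.12 and -0.72 in WT (1452097_a_at), with differences of -2.20 and -1.10. Fosl2, a subunit of AP-1, rose by 1.77 and 1.23. The exchange factor Sos2 had 0.74 and 1.004 in DKO, against -0.97, -1.26 and -1.06 in WT, a rise of 1.97 (SE 0.174), and the kinase Map2k1 (MEK1) rose by 1.18, each at 1 probe set. Notch1, the receptor of arterial specification, fell at both probe sets, to -0.87 and -0.68 in DKO, against 0.67, 0.34 and 0.45 in WT at 1418634_at (log2 -1.26), and by a log2 of -0.95 at the other. Notch1 and Sos2 kept their calls in all 11 fits that left out 1 array, whereas Dusp7 and Map2k1 lost theirs without DKO replicate 2 and Fosl2 without DKO replicate 1 (adjusted p up to 0.107).

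Survival genes did not move as a group. Of 18 measured anti-apoptotic genes 3 were called lower and 2 higher (16.7% and 11.1%, against 7.95% and 13.2% of all genes). Bcl2l1, which encodes the survival factor Bcl-xL, had -3.05 and -2.72 in DKO, against 1.21, 0.36 and -0.52 in WT, lower by log2 -3.23 at its only probe set here (SE 0.438, adjusted p = 8.87e-04). Mcl1, another survival member of the BCL2 family, had 1.82 and 1.75 in DKO, against 3.09, 2.85 and 2.08 in WT (log2 -0.88). The inhibitors of apoptosis differed among themselves: Birc2 rose by 1.09, while Birc3 had -1.06 and -1.30 in DKO, against -1.70, -0.69 and -0.69 in WT, with overlap (log2 -0.15, adjusted p = 0.704). Bcl2l2 (Bcl-w) rose by 0.98. Among 29 pro-apoptotic genes and caspases, 3 were called lower and 2 higher (10.3% and 6.90%). The mean level of that list was 0.58 and 0.53 in DKO, against 0.32, 0.30 and 0.10 in WT. Its median difference at the brightest probe set was 0.47, against 0.18 over all genes. Bnip3, described above with the hypoxia list, was among those called higher (2.36). Bad, which binds Bcl-xL, had -0.26 and -0.44 in DKO, against 1.19, 1.33 and 1.21 in WT (1416583_at), and differed by -1.59 and -1.09. The mitochondrial protease Htra2 differed by -1.84 and -1.16, and Bak1, which permeabilises the mitochondrial outer membrane, by -1.38. Calls downward included members of both lists, and neither list was tested against all genes. Bcl2l1, Birc2, Bad and Bak1 kept their calls in all 11 fits that left out 1 array. Htra2 and Bcl2l2 lost theirs without DKO replicate 2 (adjusted p up to 0.0615), and Mcl1 kept its call in 3 fits, those without WT replicate 3, Ets1KO replicate 2 or Ets2KO replicate 3 (adjusted p otherwise up to 0.156).

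The ETS letters also stand near the start in 1 of the 3 Bcl2l1 promoters in the table, and 24 bases around them are shown. They lie at chr2:152831679-152831702 of GRCm38.p6, on the reverse strand, and the match begins at base 35 of the RefSeq transcript. Of all genes with 2 or more probe sets and a promoter, 9.89% held these letters, and 3.89% of all promoters did. A part of this site in the Bcl2l1 fall was not tested.
Bcl2l1: ccgcggcaCCGGAAGTggctgcgc

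Proteasome subunits were called lower more often than higher. Of 31 proteasome subunits, 9 had every probe set called lower and 3 higher, with a median of -0.33. These are 29.0% and 9.68%, against 7.95% and 13.2% of all genes. Psma7, a subunit of the core ring, had 1.36 and 1.76 in DKO, against 2.72, 2.53 and 3.05 in WT (1423567_a_at), and differed by -1.20 and -1.22. Psmd3, of the regulatory lid, had 0.54 and 0.44 in DKO, against 2.57, 2.44 and 2.16 in WT (log2 -1.90). Of 18 genes of the anaphase-promoting complex and its partners, 3 had every probe set called lower (16.7%) and 2 higher (11.1%, Cdc16 and Anapc13). In 2, probe sets were called both ways. Its subunit Anapc5 had -1.42 and -1.44 in DKO, against 3.02, 2.81 and 2.15 in WT (log2 -4.09, SE 0.259), and Ube2s, the ubiquitin-conjugating enzyme that extends chains for that complex, differed by -2.90. As deposited, where 9431 of all 20523 probe sets were called lower, the proteasome list had 23 members called lower and 0 higher. After quantile normalization it had 12 and 0. The count higher was also 0 without WT replicate 1, WT replicate 2, DKO replicate 1 or DKO replicate 2, with the replicate block and with the 5 arrays alone, where 6 to 9 were lower.

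Of 26 mitotic genes 0 had every probe set called in limma, although all 26 were below 0 at every probe set, as 31.9% of all genes were. Their median was -1.11. The mean level of the list was 1.40 and -0.25 in DKO, against 1.78, 1.62 and 2.02 in WT, so 1 DKO array lay near WT and the other well below. Plk1, the main kinase of mitotic entry, had -0.20 and -2.11 in DKO, against 1.89, 1.73 and 1.67 in WT (log2 -2.92, SE 1.16, adjusted p = 0.0773). Kif11, the motor that separates spindle poles, was called at 1 of 3 probe sets (log2 -3.19). The list mean was -2.63 in Ets2KO replicate 3, against 2.06 and 1.70 in the other Ets2KO arrays, and all groups share the spread of the fit. Without that array 7 members were called lower.

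Ribosomal protein genes had no stable direction across scales. Of 30 measured, 12 had every probe set called higher (40%, against 13.2% of all genes) and 0 lower, with a median of 0.49. Rpl38 had 6.22 and 6.22 in DKO, against 5.43, 5.41 and 5.42 in WT, a rise of 0.80 (SE 0.11). Rps6, the substrate of S6 kinase, rose by 1.60, and Rps29 by 0.40 to 0.63 at 3 probe sets. As deposited 1 member was called higher and 10 lower, Rps29 among those below 0, and after quantile normalization 1 was higher and 1 lower. Without DKO replicate 2 or WT replicate 2 the count higher was 5 and 6. Of 11 measured transcripts commonly used as references, 4 had every probe set called higher (36.4%) and 0 lower, with a median of 0.30.

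Subunits of oxidative phosphorylation were called at shares near those of all genes. Of 44 measured genes 8 had every probe set called higher and 4 lower (18.2% and 9.09%, against 13.2% and 7.95% of all genes). Cox5b, a subunit of cytochrome c oxidase, rose at all 5 of its probe sets by 0.92 to 1.05, with 5.40 and 5.39 in DKO, against 4.36, 4.50 and 4.16 in WT (1456588_x_at). Cox8a, of the same complex, fell at both of its probe sets, to 3.58 and 3.84 in DKO, against 4.42, 4.36 and 4.68 in WT (log2 -0.77 and -0.68). In the cytochrome bc1 complex Uqcrb rose by 1.01 and 0.71, and Uqcrc1 had 1.69 and 1.85 in DKO, against 3.06, 3.11 and 2.59 in WT (log2 -1.15). The complex I subunit Ndufv1 fell at 3 probe sets, by log2 values of -1.15, -0.98 and -0.52. Cox5b, Uqcrb and Uqcrc1 kept their calls in all 11 fits that left out 1 array. Cox8a lost its call without DKO replicate 1 (adjusted p up to 0.122). Ndufv1 lost its call without WT replicate 3, Ets1KO replicate 2, Ets2KO replicate 2 or DKO replicate 2 (adjusted p up to 0.183).

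**Figure D4:**
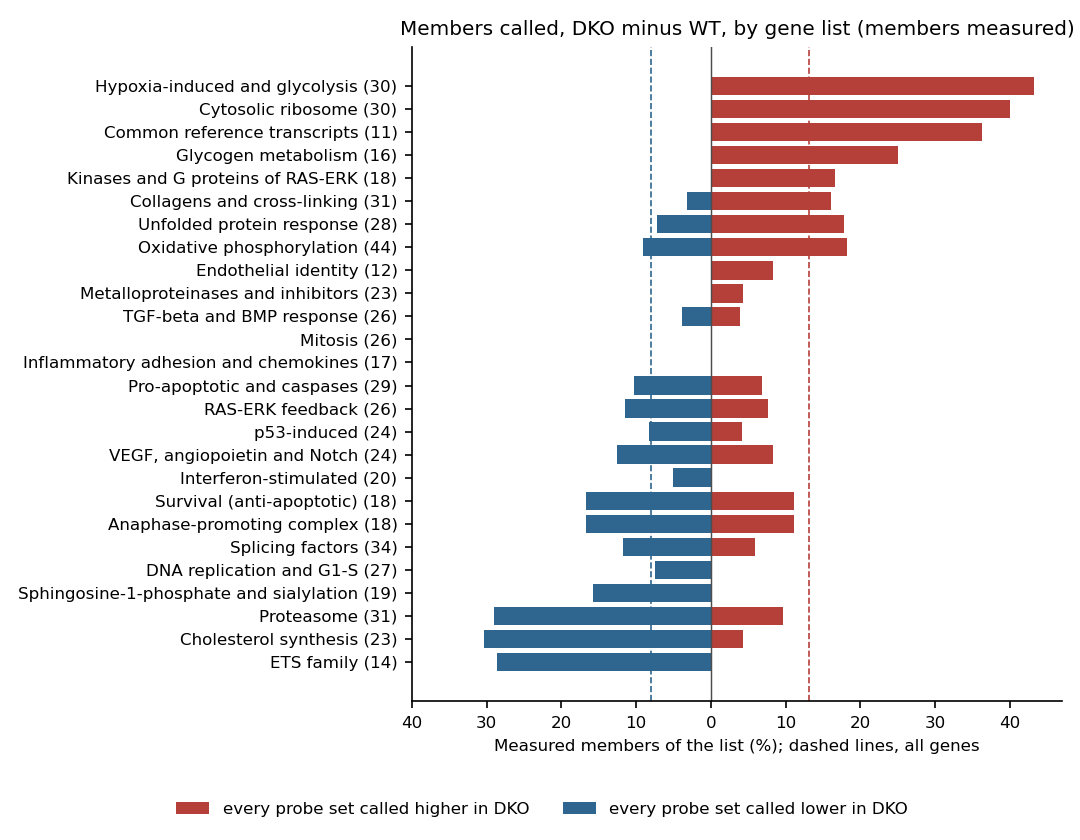
Share of measured members of each gene list shown (%) with every probe set called higher (right) or lower (left) in the arrays labelled DKO against WT, with the number measured in brackets. Dashed lines are the shares over all 11015 genes, 13.2% higher and 7.95% lower, and hypoxia-induced and glycolytic genes reach 13 of 30 on the right.

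A few genes had 4 or more probe sets called the same way, also with 1 sign as deposited. Besides Alcam, Tfpi, Vldlr and Cox5b, they were the splicing factor subunit Sf3b1, which rose by 1.10 to 1.43, and the chromatin reader Kmt2e, which rose by 0.97 to 2.51. Downward they were the tryptophan tRNA ligase Wars (log2 -2.45 to -0.79), the nucleolar protein Noc4l (-1.14 to -0.77) and the proteasome phosphatase Ublcp1 (-2.05 to -0.77). Sf3b1 had 3.88 and 4.72 in DKO, against 2.97, 2.80 and 2.83 in WT (1449138_at). Wars had -1.80 and -1.82 in DKO, against 0.83, 0.80 and 0.29 in WT (1415694_at). Without DKO replicate 2 each of these 5 genes lost a call (adjusted p over all such fits up to 0.234), and Ublcp1 lost none without any other array. Sf3b1, Kmt2e and Wars lost a call without WT replicate 1 or 2, Sf3b1, Kmt2e and Noc4l without WT replicate 3, and Wars and Noc4l without DKO replicate 1. Ets1KO replicate 2 also cost Sf3b1 and Noc4l a call, and Ets2KO replicate 1 cost Noc4l a call.

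In 454 genes probe sets were called both ways, and Pfkp, Hif1a and Hk1 are shown as members of the hypoxia and glycolysis list. Pfkp, the platelet-type phosphofructokinase, had 3.75 and 4.44 in DKO, against 1.46, 1.27 and 0.92 in WT at 1416069_at, and -3.74 and -3.49 in DKO, against 1.02, 0.79 and -0.17 in WT at 1430634_a_at. The same gene thus rose by 2.88 (SE 0.273) and fell by 4.16 (log2 -4.16, SE 0.323), each without overlap. Hif1a, the oxygen-regulated subunit of HIF, had -1.91 and -2.13 in DKO, against 1.23, 1.29 and 1.13 in WT at 1448183_a_at (log2 -3.24, adjusted p = 1.03e-05). Its brightest probe set had 3.43 and 3.58 in DKO, against 3.18, 3.29 and 3.20 in WT (0.28, adjusted p = 0.288), and 1416035_at rose by 0.74. Hexokinase 1, Hk1, rose by 1.17 at 1437974_a_at and differed by -3.37 at 1420901_a_at. Actb, a cytoskeletal actin, rose by 1.96 at 1419734_at, and its brighter probe set gave -0.63 (adjusted p = 0.0703).

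**Figure D5:**
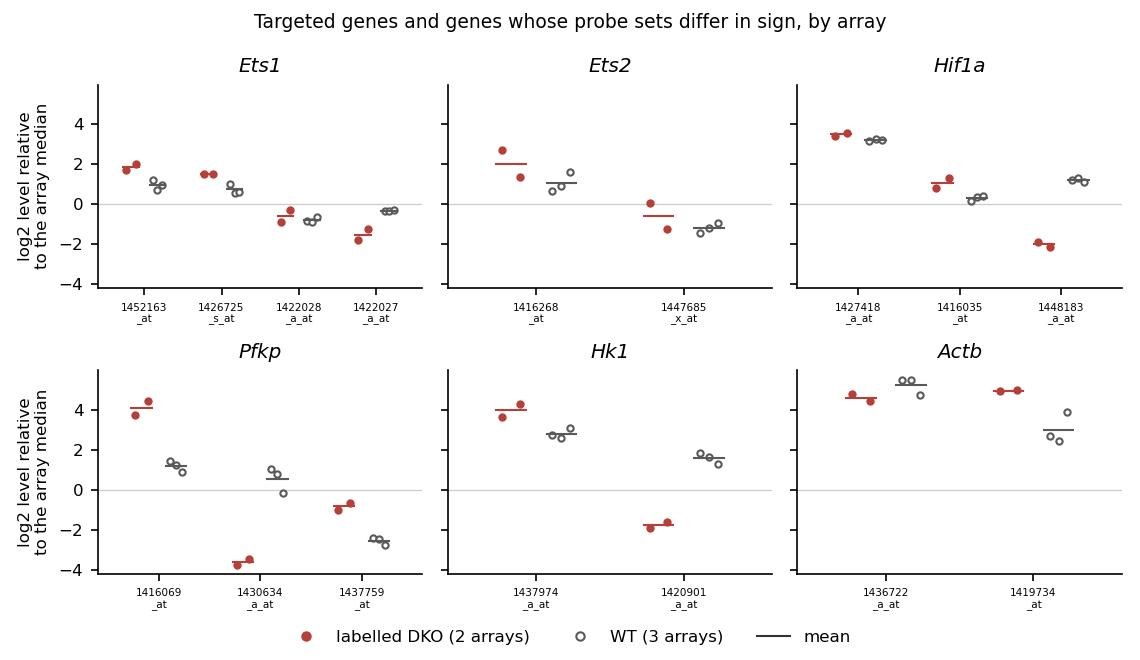
Log2 level relative to the array median (y axis) at each probe set of the targeted genes and of 4 genes whose probe sets differ in sign, with the arrays labelled DKO left of WT and a line at each mean. Ets1, Hif1a, Pfkp and Hk1 each have a probe set higher and a probe set lower in DKO.

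Within these genes, 596 probe sets were called higher and 523 lower. Those with the suffix _a_at, which read several transcripts of 1 gene by design, made up 31.0% of the ones called lower and 11.1% of the ones called higher. Over the whole array 22.8% of _a_at probe sets were called lower and 16.5% higher, against 7.64% lower and 28.5% higher for _x_at probe sets, which can also bind other transcripts. The probe set called higher was the dimmer in WT in 209 of the 454 genes. The probe set read brightest was called higher in 251 of them and lower in 74. Brightness was the mean over all 11 arrays, DKO among them, so a rise in DKO itself favours that choice. Single-probe-set genes named above, Bcl2l1, Anapc5, P4ha2, Aldoc and Erf among them, have no second probe set to set beside the first, and St3gal4, a sialyltransferase with the same limit, had -2.12 and -1.60 in DKO, against 1.68, 1.05 and 0.98 in WT (log2 -3.10, _a_at).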

How the data were processed

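The deposited values are log2 intensities per probe set of a mouse expression array, made with RMA per the submitters' processing notes (background correction, normalization and summary of probes). The genome build and software versions are not given in the sources used here. Of the 12 columns, 1 was not used, the third DKO column. Each array's median was subtracted. limma 3.58.1 in R 4.3.3 was fitted to 20523 probe sets on 11 arrays with a mean per group, so that the Ets1KO arrays (Ets1 null, floxed Ets2, eGFP virus) and Ets2KO arrays (floxed Ets2, Cre virus) enter the spread only (7 residual degrees of freedom), and p-values were adjusted by Benjamini-Hochberg over all probe sets. The number of arrays limits the precision. The script was tested on simulated data.

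Gene symbols came from the platform annotation: 18824 probe sets had 1 symbol, 549 several and 1150 none listed, and only those with 1 were named. Members and lists were chosen with earlier results of these data known. Named were the 12 rises and 12 falls with the largest smallest difference among genes whose probe sets, 2 or more, were all called one way, kept their sign as deposited, did not overlap and lay above the array median at the brightest probe set of the higher group, then genes with 4 or more such probe sets, then Ets1, Ets2 and up to 4 called members and 2 others of each list. Singled out after their values were seen were Birc3, Sphk1, Hk2, Aldoa, Mcl1, Birc2, Bcl2l2, Actb, Hk1, Elk1, Hif1a, Pfkp, Scap, Psmd3 and Plk1, and also Col1a1, Col1a2, Col3a1 and Col5a2. Other gene lists are shown only in the plot of gene lists or not reported here. Descriptions of the Ets1KO and Ets2KO samples call the targeted gene wild type, and titles and genotypes were followed. Alternatives were other scaling, array sets, filters and models, and each array left out. Promoters were RefSeq sequences of GRCm38.p6.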

Additional observations from a re-analysis of the deposited data

How the results depend on the processing

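Results were recomputed as deposited, after quantile normalization, with the 5 arrays alone, with probe sets above the median, with array weights, with an intensity trend, with a replicate block and without each array. As deposited, 590 probe sets were called higher and 9431 lower, with 13 and 1081 genes in agreement and 138 called both ways. Quantile normalization gave 3437 and 3177 probe sets, 201 and 175 genes in agreement and 369 both ways. The 5 arrays alone gave 2173 and 1920 probe sets, 74 and 77 genes and 143 both ways. The filter on the median gave 2196 and 1660, 141 and 98, and 165. Taking the mean over probe sets, 1867 genes were higher and 1296 lower, and taking the brightest, 2176 and 1165. Without 1 array, the probe sets called higher numbered 2715 to 4742, those called lower 2196 to 3255, the genes in agreement 109 to 317 higher and 81 to 173 lower, and those both ways 249 to 491. The lowest of the last 3 ranges came without DKO replicate 2. Without WT replicate 2 they were 182, 125 and 274, without WT replicate 1 186, 111 and 284, and without DKO replicate 1 256 genes were called both ways.

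Of the 95 single genes and probe sets, 57 kept their direction and side of the threshold as deposited, 81 after quantile normalization, 62 with the 5 arrays alone and 54 without DKO replicate 2. As deposited the sign turned for Ets1 at 1422028_a_at (-0.61) and 1426725_s_at (-0.017), Ets2 at 1447685_x_at (-0.20), Rps29 (-0.26), Pfkp (-0.65) and Actb (-0.13), the last 3 as means over probe sets. Without 1 array, the sign also turned for Ets1 at 1422028_a_at (range -0.11 to 0.48), Ets2 at 1447685_x_at (-0.068 to 1.26), Birc3 (-0.49 to 0.014) and Pfkp (-0.073 to 0.37). The cause was not tested. Whether replicate numbers pair the samples cannot be told from these values. The deviations of DKO and WT arrays of the same number correlated at -0.06 and -0.13. With 2 DKO arrays each deviation is the negative of the other, so such correlations cannot decide it. With the replicate block 3815 probe sets were higher and 2683 lower, with 218 and 121 genes in agreement and 367 both ways, and 81 of the 95 kept their call.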
